A study of Mus musculus with 4 samples.

Results

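The genes described here are 10 components of the endosomal and lysosomal machinery that degrades proteins and prepares antigens. They are the cathepsins Ctss, Ctsl, Ctsb, Ctsc, Ctsh, Ctsz and Ctsd, the asparaginyl endopeptidase Lgmn, the thiol reductase Ifi30 and the protease inhibitor Cst3. All 10 were found among the 29835 genes listed for murine ascites in single-cell RNA sequencing, and their level was taken in cells of 5 types, each defined by unique molecular identifiers (UMIs, counted transcript molecules) of a few marker genes. Tumour cells carried at least 5 UMIs of Krt7, Krt8, Krt18, Krt19 and Wt1 together and none of Ptprc. Monocytes carried at least 3 UMIs of Lyz2, at least 1 of Ly6c2 and at most 1 of the C1q genes. Macrophages carried at least 5 C1q UMIs and at most 2 of the 4 keratins. Conventional dendritic cells (cDC) carried at least 2 UMIs of Xcr1, Clec9a and Cd209a together, and B cells at least 3 of Cd79a and Cd79b. Each such definition is called a gate.

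The 4 libraries came from C57BL/6 mice that had received ID8-Trp53-/- cells, a murine ovarian surface epithelial tumour line lacking Trp53, by intraperitoneal injection. Per the labels the cells engrafted for 7 days, after which mice were dosed 2 times a week up to an ascites volume near 3 mL. The control library received DMSO and an IgG2a isotype antibody, the BTYNB library the IGF2BP1 inhibitor BTYNB at 50 mg/kg and the isotype antibody, the anti-PD-1 library DMSO and the PD-1 blocking antibody RMP1-14, and the combination library BTYNB and RMP1-14. Antibodies were given at 100 ng a dose. These amounts of BTYNB and antibody are those of the labels, and the study's methods give different ones for both. Erythrocytes and dead cells were removed before capture. The cells of all animals of a treatment were pooled into 1 library, so no difference between treatments has a replicate check, and the intervals given here are 95% intervals of counting error only. Animals, collection and library preparation of a treatment cannot be told apart from the treatment.

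Cathepsins are proteases of endosomes and lysosomes that are made as inactive precursors and activated at low pH. In antigen-presenting cells they cut internalised proteins into peptides and degrade the invariant chain that guards the peptide groove of MHC class II, a step for which Ctss is used in dendritic cells, B cells and macrophages and Ctsl in thymic epithelium. Ifi30, also known as GILT, reduces disulfide bonds so that proteins can unfold for cutting, and Cst3 is a secreted inhibitor of cysteine cathepsins that marks conventional dendritic cells. Tumour cells and macrophages of solid tumours and ascites both release cathepsins.

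The gates held very different numbers of cells. Libraries are listed in the order control, BTYNB, anti-PD-1, combination. There were 6770, 3548, 10386 and 4169 tumour cells and 236, 1507, 355 and 906 macrophages. The cDC gate held 64, 967, 84 and 724 cells, the monocyte gate 24, 654, 21 and 82, and the B gate 29, 3163, 35 and 273. Gates with fewer than 50 cells were not compared between libraries, which left 14 comparisons. The median deposited cell had 2562 UMIs in BTYNB and between 6908 and 9480.5 in the other libraries. The smallest had 869 UMIs in BTYNB and 4438, 3533 and 5115 in control, anti-PD-1 and combination, so the cell counts depend on this limit. With a common minimum of 5115 UMIs, the B gate held 281 cells in BTYNB and 273 in combination. The monocyte gate then held 151 and 82, and the macrophage gate 691 and 906. Levels are given as counts-per-million values (CPM), the UMIs of a gene scaled to a fixed total of UMIs in the gate. Genes not used by the gates were checked in them. Csf1r, the receptor of macrophage growth factor, was at 428 to 590 CPM in macrophages against 1.43 to 2.62 in tumour cells. Flt3, a dendritic cell receptor, was at 121 to 289 in cDC against at most 5.02 in macrophages. Some other genes did not separate the gates. Msln, Upk1b and Upk3b were higher in tumour cells than in cDC in each library, but Epcam and Cdh1 were lower, at most 0.192 and 2.83 CPM. Zbtb46 was at 29 to 32.3 CPM in tumour cells against 31.5 to 56.9 in cDC. In BTYNB, Ms4a1 was at 396 CPM in B cells, and Ccr2 at 2032 in monocytes against 1675 in macrophages. In control, Ccr2 was at 474 in monocytes against 792 in macrophages.

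Several gates were mixed, and these values stand beside the results they touch. A set of 5 tumour genes was at a median of 40.5% of its tumour level in the cDC gate of control and 71.2% in that of anti-PD-1, against 7% in BTYNB and 6.93% in combination. In the monocyte gate of combination it was at 42.6%, and 51 of its 82 cells also passed another gate, whereas in BTYNB it was at 8.83% and 52 of 654 cells did so. The 6 neutrophil markers summed to 9915 CPM in the monocyte gate of BTYNB and to 31 in that of combination. In the B gate, 21 of 29 control cells and 29 of 35 anti-PD-1 cells also passed the tumour gate, as did 105 of 273 in combination and 145 of 3163 in BTYNB. In macrophages the same 5 tumour genes were at a median of 1.64% (BTYNB) to 13.2% (anti-PD-1) of their tumour level. Within each library this was lower than in the cDC and monocyte gates. Single genes of the 5 reached 141% in anti-PD-1 macrophages and at most 13.6% in those of the other libraries.

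In every library, 9 of the 10 genes were at least 2-fold higher in macrophages than in tumour cells, and none was 2-fold lower. The one below this limit was Ctsl. The median log2 ratio of the 10 genes was 2.83, 2.62, 2.86 and 3.02 in this order, against -0.42, -0.45, -0.41 and -0.42 over all genes tested. Of all genes with at least 100 UMIs in either gate, 13.4% were at least 2-fold higher in control macrophages, and 15.8%, 12.2% and 14.5% in the other libraries, while 32.8%, 34.4%, 31.1% and 31.6% were at least 2-fold lower. C1q-positive macrophages thus carried more of these transcripts per total RNA than tumour cells in all 4 libraries, in contrast to most genes.

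**Figure D1:**
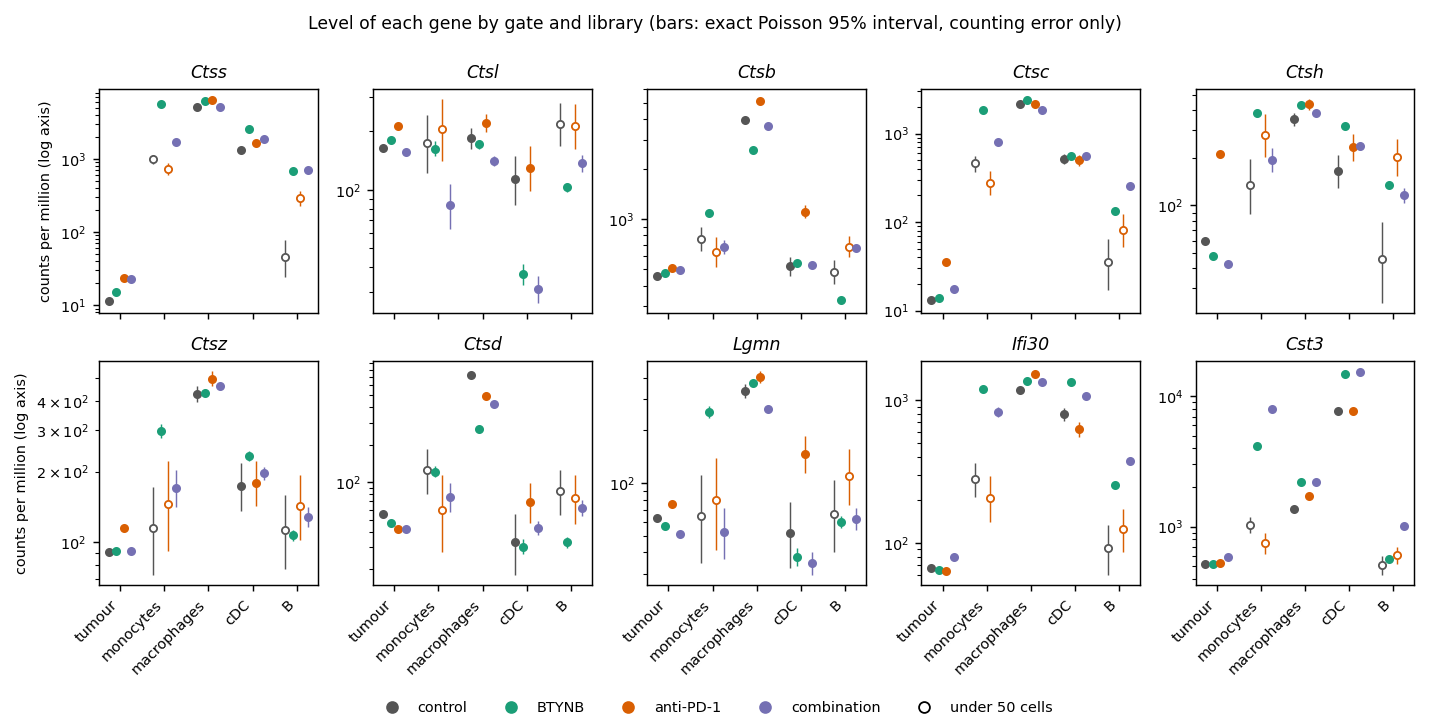
Level of each of the 10 genes in CPM on a log axis, by gate (x axis) and library (colour), with exact Poisson 95% intervals of counting error. Open points are gates with fewer than 50 cells. The macrophage points of 9 genes lie above all tumour points, while the Ctsl points of both gates overlap.

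Among the cysteine endopeptidases, Ctss had the widest range over cell types. In macrophages its level was 5118, 6070, 6374 and 5046 CPM in the same order of libraries. In tumour cells it was at 11.6, 15.1, 23.9 and 23.2 CPM. The macrophage level was 440-fold higher in control (log2 ratio 8.78, interval 8.68 to 8.89) and 217-fold higher in combination (7.76, 7.68 to 7.85). At a depth of 1000 UMIs per cell, 97% of macrophages in control and 97.2% to 98.6% in the other libraries had a Ctss UMI, against 0.827% to 2.13% of tumour cells; at full depth these were 99.9% to 100% and 4.74% to 14.1%.

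The low Ctss level of tumour cells was no higher than that of transcripts tumour cells should lack. A set of 6 leukocyte genes (Tyrobp, Fcer1g, Csf1r, Coro1a, Cd52 and Ptpn6) was at a median of 0.417%, 0.48%, 1% and 0.719% of its macrophage level in tumour cells of control, BTYNB, anti-PD-1 and combination. Ctss was at 0.228%, 0.249%, 0.375% and 0.46%, under the lowest of the 6 genes in each library, which stood at 0.29%, 0.266%, 0.445% and 0.524%. The highest of the 6 stood at 9.1%, 7.38%, 7.94% and 8.85%, so they give no single level. Where the Ctss UMIs of tumour cells come from was not tested. No difference in them between libraries is read as a change in tumour cells.

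Ctsl, which has a broad tissue range, showed no such contrast. Its macrophage level was 184, 171, 221 and 141 CPM, and its tumour level 164, 180, 214 and 157. The log2 ratios of macrophages over tumour cells were 0.16, -0.07, 0.05 and -0.15, all well within 2-fold. Their intervals included 0 in control (-0.02 to 0.34), BTYNB (-0.15 to 0.01) and anti-PD-1 (-0.11 to 0.20). In combination the interval lay below 0 (-0.25 to -0.06). The cDC gate was lower in the 2 libraries with few tumour transcripts in it, at 36.8 CPM in BTYNB and 30.8 in combination, where the log2 ratios over tumour cells were -2.29 and -2.35. Ctsl was the one gene of the 10 that was at least 2-fold lower in cDC than in tumour cells there, as were 35.4% of all genes in BTYNB and 33.4% in combination, while 6 of the 10 and 14.3% and 14.1% of all genes were at least 2-fold higher.

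Ctsb, an endopeptidase that also removes dipeptides, was at 3955, 2580, 5120 and 3615 CPM in macrophages and at 459, 475, 513 and 495 in tumour cells. Tumour levels lay close together, and the macrophage level was between 5.43-fold higher in BTYNB and 9.97-fold higher in anti-PD-1. In cDC Ctsb was at 548 CPM in BTYNB and 530 in combination, within 0.20 of the tumour level on the log2 scale.

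The exopeptidases differed from each other in this contrast. Ctsc, also called dipeptidyl peptidase I, activates the granule proteases of leukocytes and was at 2165, 2405, 2146 and 1860 CPM in macrophages against 13.2, 13.9, 35.8 and 17.7 in tumour cells, 59.9-fold to 173-fold higher. Its tumour level was 0.608%, 0.579%, 1.67% and 0.954% of the macrophage level, within the range of the 6 leukocyte genes in each library. Ctsh, an aminopeptidase, was at 350, 434, 435 and 382 CPM in macrophages and at 59.5, 47.7, 211 and 42.5 in tumour cells. The anti-PD-1 tumour cells stood apart from the other 3 libraries, and the macrophage excess was only 2.06-fold there against 5.89-fold to 9.08-fold elsewhere. Ctsz, a carboxypeptidase, was 4.31-fold to 5.02-fold higher in macrophages in all libraries, at 428 to 497 CPM against 90.7 to 115.

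The aspartic protease Ctsd, which degrades bulk protein and activates other cathepsins, was at 727, 266, 495 and 427 CPM in macrophages and at 55.5, 46.5, 41.8 and 41.9 in tumour cells. The macrophage level was lowest in BTYNB, and the excess over tumour cells was 13.1-fold, 5.73-fold, 11.8-fold and 10.2-fold. Lgmn, which cuts after asparagine and processes other lysosomal proteases, was at 335, 375, 401 and 265 CPM in macrophages and 5.17-fold to 6.58-fold lower in tumour cells. Ifi30 was at 1182, 1367, 1526 and 1334 CPM in macrophages and at 66.7, 65, 64 and 79.8 in tumour cells, 16.7-fold to 23.9-fold lower. Tumour Ifi30 was at 4.19% to 5.98% of the macrophage level, above the median of the 6 leukocyte genes in every library and below that of the highest of the 6, at 7.38% to 9.1%.

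Cst3, the inhibitor, had its highest level in cDC and not in macrophages. It was at 7706, 14866, 7753 and 15410 CPM in cDC, at 1371, 2191, 1715 and 2186 in macrophages and at 514, 519, 523 and 580 in tumour cells. The log2 ratio of macrophages over cDC was -2.49, -2.76, -2.18 and -2.82, and Cst3 was the only one of the 10 that was 2-fold lower in macrophages than in cDC in any library. The other 9 had higher values in macrophages than in cDC in all 4 libraries, at least 2-fold for 7 genes in control, anti-PD-1 and combination and for 6 in BTYNB. Of all genes, 16.2%, 9.47%, 16.8% and 10.6% were at least 2-fold higher in macrophages than in cDC, and 4.03%, 7.72%, 4.4% and 6.98% lower. Ifi30 was nearest to parity in control, BTYNB and combination, with log2 ratios of 0.57, 0.04 (interval -0.00 to 0.08) and 0.32, and stood at 1.29 in anti-PD-1.

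**Figure D2:**
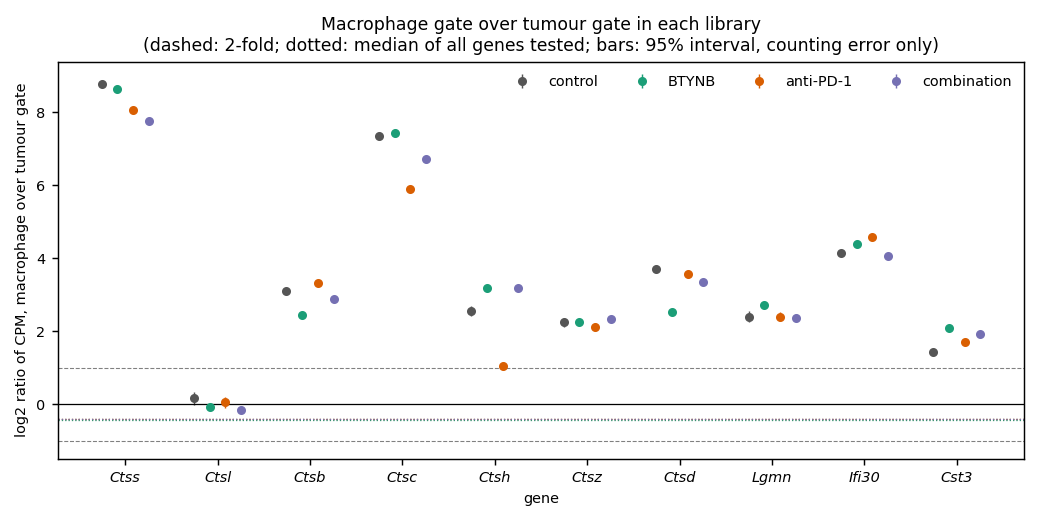
Log2 ratio of CPM in macrophages over tumour cells for each gene (x axis) in the 4 libraries (colour), with 95% intervals of counting error. In each library 9 of the 10 points lie above the dashed 2-fold line, Ctsl lies around 0, and the dotted medians of all genes lie between -0.41 and -0.45.

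Regulatory sequence was available for 8 of the 10 genes as RefSeq promoter windows of GRCm38.p6, which run from 250 bases before the annotated start to 50 bases after it. Ctsb and Ctsh had none, and Lgmn had windows for 2 starts. Letters were searched on both strands for the E-box core CACGTG, which lies within the element bound by the lysosomal regulator TFEB, for the interferon-stimulated response element core and for the interferon-gamma activated site core TTCNNNGAA. The E-box core was in 4 of the 9 windows, those of Ctsd, Ctsl, Ifi30 and the downstream start of Lgmn, and in 7.15% of all 32851 windows. The response element core was in the Ctss window, and in 3.44% of all, and the activated site core was in the Ctsc window, and in 8.3% of all. The bases before the start are shown for Ctss and Ifi30, which had large macrophage excesses, and for Ctsd, which differed most between libraries in macrophages. Capitals mark the matches, which describe the letters and not binding. The Ctss window is chr3:95526536-95526785 on the plus strand, that of Ctsd chr7:142387828-142388077 and that of Ifi30 chr8:70766664-70766913, both on the minus strand.
Ctss: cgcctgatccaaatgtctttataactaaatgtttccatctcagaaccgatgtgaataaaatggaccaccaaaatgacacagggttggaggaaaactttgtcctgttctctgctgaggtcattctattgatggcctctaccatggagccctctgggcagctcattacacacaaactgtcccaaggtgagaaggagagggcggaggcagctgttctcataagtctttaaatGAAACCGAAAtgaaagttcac
Ctsd: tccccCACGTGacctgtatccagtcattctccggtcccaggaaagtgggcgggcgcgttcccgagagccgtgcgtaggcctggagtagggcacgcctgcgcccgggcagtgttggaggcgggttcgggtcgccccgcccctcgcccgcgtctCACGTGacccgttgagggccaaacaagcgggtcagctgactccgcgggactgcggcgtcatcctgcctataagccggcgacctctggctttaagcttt
Ifi30: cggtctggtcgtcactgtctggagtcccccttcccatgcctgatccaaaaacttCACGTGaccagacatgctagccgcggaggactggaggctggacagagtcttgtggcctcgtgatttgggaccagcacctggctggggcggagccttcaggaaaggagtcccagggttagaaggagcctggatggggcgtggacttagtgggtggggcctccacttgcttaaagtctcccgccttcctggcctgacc
The Ctss match begins 21 bases before the start, the Ctsd matches 245 and 98 bases before it and the Ifi30 match 196 bases before it.

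The share of each gene's UMIs that fell in a gate followed both the level and the number of cells. UMI shares of a gate count only its cells that passed no other gate. Shares of cells count every cell of a gate, except where stated. Tumour cells were 91%, 20.4%, 91% and 62.3% of the kept cells. Shares of cells in BTYNB include those with fewer UMIs than any cell of the other libraries. Macrophages made up 3.17% of cells in control, yet those that passed no other gate held 72.7% of its Ctss UMIs and 61.5% of its Ctsc UMIs. In anti-PD-1 macrophages were 3.11% of cells, and those that passed no other gate held 69.4% and 46.1%. Tumour cells that passed no other gate held 92.7%, 63.2%, 93% and 75.5% of the Ctsl UMIs in control, BTYNB, anti-PD-1 and combination. They held 81.2%, 13.8%, 81.4% and 20.9% of those of Cst3. Cells that passed only the cDC gate held 47.8% of the Cst3 UMIs in BTYNB and 51.2% in combination, and were 4.8% and 8.85% of the cells. Cells of no gate were 45.1% of the BTYNB library and held 14.5% to 23.9% of each gene's UMIs there.

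**Figure D3:**
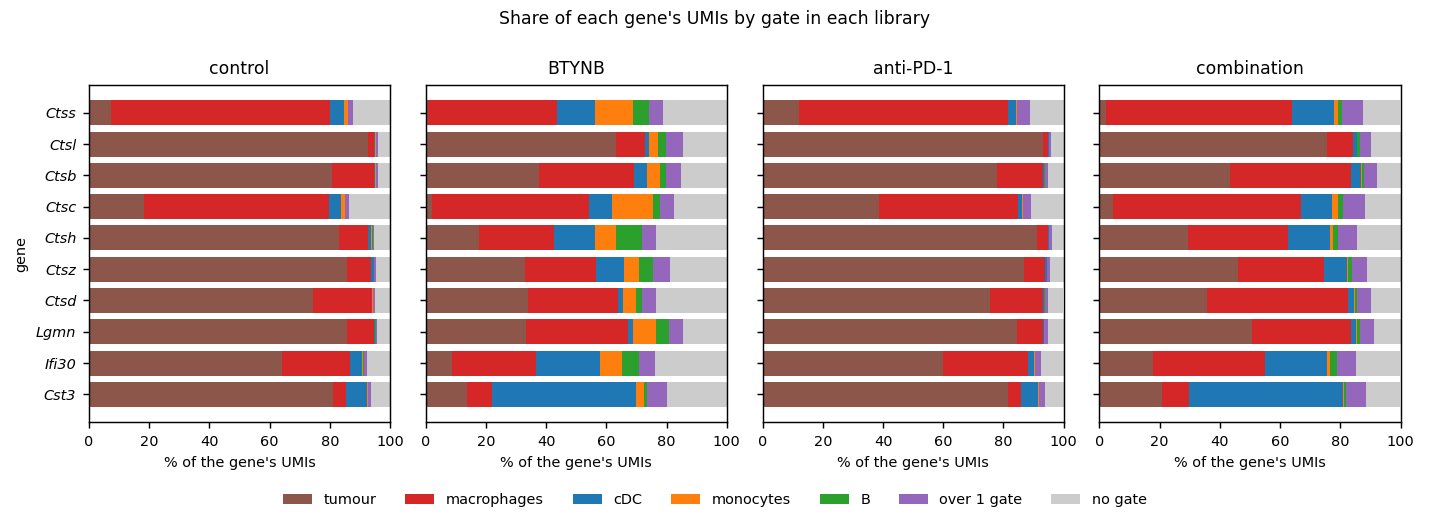
Share of each gene's UMIs (x axis, percent) by gate (colour) in the 4 libraries, with cells that passed over 1 gate and cells of no gate shown separately. Macrophages hold most Ctss UMIs in control, anti-PD-1 and combination and cDC about as many Cst3 UMIs as all other cells of BTYNB and combination together, while tumour cells hold most Ctsl UMIs in every library.

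Within the dendritic cells the genes differed between subtypes. Cells with at least 2 UMIs of Xcr1 and Clec9a and none of Cd209a (cDC1-type) were set against cells with at least 2 UMIs of Cd209a and none of the others (cDC2-type), in the 2 libraries with at least 50 cells of each, 512 and 405 in BTYNB and 487 and 202 in combination. Type 1 cells are known for presenting internalised antigen on MHC class I, and type 2 cells for presenting it on class II. Ctss was at 1260 CPM in cDC1-type and 4204 in cDC2-type cells of BTYNB and at 1055 and 3438 in combination, 3.34-fold and 3.26-fold lower in cDC1-type cells. Ifi30 was 2.25-fold and 2.51-fold lower, Ctsc 3.29-fold and 2.54-fold, Ctsh 2.91-fold and 3.17-fold. Cst3 went the opposite way, at 22013 against 5525 CPM in BTYNB and 20173 against 5002 in combination, 3.98-fold and 4.03-fold higher in cDC1-type cells. In each library 6 genes were at least 2-fold lower and 1 was at least 2-fold higher in cDC1-type cells, of 10 tested in BTYNB and 9 in combination. Among all genes 8.26% and 5.91% were lower and 6.64% and 6.5% higher. Ctss, Ctsc, Ctsh, Ifi30 and Ctsd were lower in both, joined by Ctsl (-1.52) in BTYNB and by Ctsz (-1.21) in combination, where Ctsl had too few UMIs. Ctsd was lower in cDC1-type cells, at 13.6 against 55.8 CPM in BTYNB and 14.3 against 108 in combination. The summed macrophage markers were also lower in cDC1-type cells, at 280 against 857 CPM in BTYNB and 501 against 1056 in combination, as were the monocyte markers, at 2043 against 3809 and 2030 against 4342. Of these 10 and 8 markers all were detected, except Chil3 in cDC1-type cells of combination, and their part in the ratios was not tested.

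Monocytes of BTYNB, the monocyte gate with the most cells, had levels near those of macrophages for several genes. Ctss was at 5516 CPM against 6070 in macrophages, and Ifi30 at 1196 against 1367. Ctsb was at 1096 against 2580 CPM and Ctsd at 121 against 266, so 2 genes were at least 2-fold higher in macrophages than in monocytes and none lower, against 2.61% and 1.61% of all genes. Cst3 was the gene with the lower macrophage level, at 2191 against 4165 CPM. The neutrophil marker level of this gate, 9915 CPM, stands beside these values.

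B cells of BTYNB carried Ctss at 673 CPM, Ifi30 at 256 and Ctsh at 135. T cells of the same library served for comparison. They were defined by at least 3 UMIs of the Cd3 genes, none of Cd79a and Cd79b and few of the macrophage and keratin genes. They carried Ctss at 330 CPM, Ifi30 at 110 and Ctsh at 23.6, with log2 ratios of B over T cells of 1.03, 1.21 and 2.52. In the 2909 B cells of BTYNB that passed no other gate, Ctss was at 1016 CPM, Ifi30 at 343 and Ctsh at 192, and 5 genes were at least 2-fold higher than in T cells and 2 at least 2-fold lower, against 10.2% and 8.74% of all genes. The lower pair was Ctsd, at 15 against 67.9 CPM (-2.18, -2.54 to -1.83), and Cst3, at 282 against 874 (-1.63, -1.72 to -1.55), and Ctsb lay just inside the limit, at 116 against 232 CPM. These B cells thus carried more Ctss, Ctsh, Ctsz, Lgmn and Ifi30 than the T cells as defined, but less of the inhibitor and of Ctsd. Both sides were not cleared alike, since the T cell definition set no limit on cDC or monocyte genes. The summed cDC markers were at 202 CPM in the T cells and 78.4 in these B cells, and the monocyte markers at 1382 and 608. The macrophage markers went the other way, at 53 and 271 CPM. The part of these transcripts in the Cst3 and Ctsd differences was not tested.

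Tumour cells differed little between BTYNB and control. None of the 10 genes was past 1.5-fold, and their median log2 ratio was 0.02, while 5.27% of all genes tested were at least 1.5-fold higher and 4.56% lower. Apart from Ctss (log2 ratio 0.38), whose tumour level is treated with caution above, the largest shift was that of Ctsh, at 47.7 against 59.5 CPM (-0.32). Between combination and BTYNB 1 gene was past the limit, with 0.804% of all genes higher and 0.422% lower. This was Ctss, at 23.2 against 15.1 CPM, whose difference is not read as a change in tumour cells.

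Tumour cells of anti-PD-1 stood out for Ctsh and Ctsc. Ctsh was 3.56-fold higher than in control (log2 ratio 1.83, interval 1.78 to 1.88), and Ctsc was 2.72-fold higher (1.44, 1.34 to 1.55). With Ctss (1.04), 3 genes were at least 1.5-fold higher and none lower, against 7.31% and 4.92% of all genes. The source of the Ctss UMIs of tumour cells was not tested, and the Ctss difference is not read as a change in tumour cells. Against anti-PD-1, combination tumour cells were 4.98-fold lower for Ctsh (-2.32, -2.38 to -2.25) and 2.02-fold lower for Ctsc (-1.02, -1.12 to -0.91), so 2 genes were lower and none higher, with 6.63% of all genes higher and 6.81% lower. Both comparisons share the anti-PD-1 library. The other 7 genes were within 1.5-fold in both. Macrophage markers moved along with the first comparison, since all 7 tested were at least 1.5-fold higher in the anti-PD-1 tumour gate, with a median log2 ratio of 1.25, and their part in the Ctss and Ctsc values was not tested.

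The Ctsh and Ctsc difference was largest in tumour cells that carried Cd24a, a surface glycoprotein. In anti-PD-1, 2489 tumour cells with at least 2 Cd24a UMIs had Ctsh at 449 CPM, and 6733 cells without Cd24a UMIs had it at 96.5, a log2 ratio of 2.22 (2.17 to 2.27). Ctsc was at 73 and 18.2 CPM in these cells (2.01, 1.89 to 2.13). In control, BTYNB and combination, the same split gave 589, 292 and 295 cells with Cd24a, with Ctsh at 55.3, 44.5 and 45.9 CPM against 60.2, 48.7 and 42.2 in cells without it, and no gene of the 10 differed 2-fold. All-gene shares past 2-fold were 0.899%, 0.671% and 0.776% higher and 2.71%, 2.85% and 3.98% lower in these libraries, and 5.3% higher and 14.6% lower in anti-PD-1, where 2 of the 10 were higher and none lower. Ctss was lower in the Cd24a cells of anti-PD-1, at 19.7 against 25.7 CPM. The 10 macrophage markers summed to 55.2 CPM in the Cd24a cells of anti-PD-1 and 61.2 in those without. Among tumour cells without Cd24a UMIs, the log2 ratio of anti-PD-1 over control was 0.68 for Ctsh and 0.51 for Ctsc, and Ctsc was then within 1.5-fold.

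**Figure D4:**
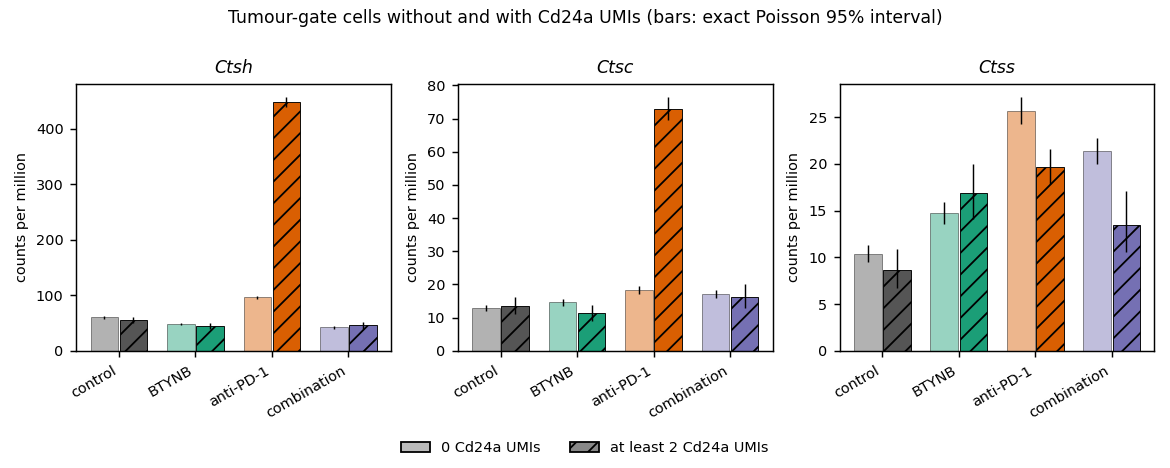
Level of Ctsh, Ctsc and Ctss (CPM, linear axis from 0) in tumour cells with 0 and with at least 2 Cd24a UMIs in the 4 libraries, with exact Poisson 95% intervals. The hatched anti-PD-1 bars of Ctsh (449) and Ctsc (73) exceed all others, and Ctss shows no such excess.

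In macrophages the proteases Ctsd and Ctsb were lower, and the inhibitor Cst3 higher, in BTYNB than in control. Ctsd was at 266 against 727 CPM, 2.73-fold lower (log2 ratio -1.45, interval -1.56 to -1.34), and Ctsb at 2580 against 3955, 1.53-fold lower (-0.62, -0.66 to -0.57). Cst3 was 1.60-fold higher, at 2191 against 1371 CPM (0.68, 0.61 to 0.74). So 1 gene was higher and 2 were lower, against 10.4% and 10.6% of all genes. Ctss, Ctsc, Ctsh, Ctsz, Lgmn and Ifi30 lay within 1.5-fold with ratios above 0, and Ctsl below it at -0.10. Ctsd was in a UMI of 42.4% of control and 18.4% of BTYNB macrophages at 1000 UMIs per cell. Monocyte markers moved along with this comparison, since 6 of 8 tested were at least 1.5-fold higher in the BTYNB macrophages, with a median log2 ratio of 1.62. Of the other pair, Fn1 was lower (770 against 1974 CPM) and Lyz2 was at 7295 against 10544, so the summed list was at 11996 against 13940. The summed fibroblast markers were at 7.91 against 302 CPM, with Col1a2 at 0.459 against 120, and the tumour markers at 100 against 200, with all 5 and all 10 genes detected in both. Of the cDC markers, all but Zbtb46 (4.01 against 10 CPM) were higher in BTYNB, with Cd209a at 23.9 against 5.01 and Naaa at 587 against 374. Another gate was also passed by 73 of 1507 BTYNB and 2 of 236 control macrophages. The part of any of these in the Ctsd, Ctsb and Cst3 differences was not tested.

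Ctsd was also 1.60-fold higher in combination than in BTYNB macrophages, at 427 against 266 CPM (0.68, 0.60 to 0.76). This 1 gene was higher and none was lower, against 5.98% and 4.44% of all genes, and 6 of 8 monocyte markers were lower by at least 1.5-fold, while Fn1 was at 2037 against 770 CPM and Lyz2 at 10607 against 7295. Summed fibroblast markers were at 49.2 against 7.91 CPM and tumour markers at 195 against 100, higher in combination like Ctsd, and their part in it was not tested. Macrophages with a Retnla UMI, an alternative activation marker, had Ctsd at 568 CPM and those without at 238 in BTYNB, and at 599 and 377 in combination. The share of such cells also differed, 96 of 1507 in BTYNB and 194 of 906 in combination. Within the cells without Retnla, Ctsd was at 710, 238, 465 and 377 CPM in control, BTYNB, anti-PD-1 and combination, the same order as over all macrophages. With the common minimum of 5115 UMIs, neither Ctsd nor any other of the genes was past 1.5-fold between combination and BTYNB macrophages.

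Anti-PD-1 and control macrophages differed by less than 1.5-fold for all 10 genes, with 4.84% of all genes higher and 4.31% lower, and Ctsd was the lowest, at 495 against 727 CPM (-0.55). Between combination and anti-PD-1, Ctsl (-0.65, -0.83 to -0.47) and Lgmn (-0.60, -0.73 to -0.47) were at least 1.5-fold lower, at 141 against 221 and 265 against 401 CPM. None was higher, against 7.2% higher and 6.21% lower among all genes. All 5 tumour markers and all 3 fibroblast markers tested were also at least 1.5-fold lower in combination macrophages, and their part in these values was not tested.

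**Figure D5:**
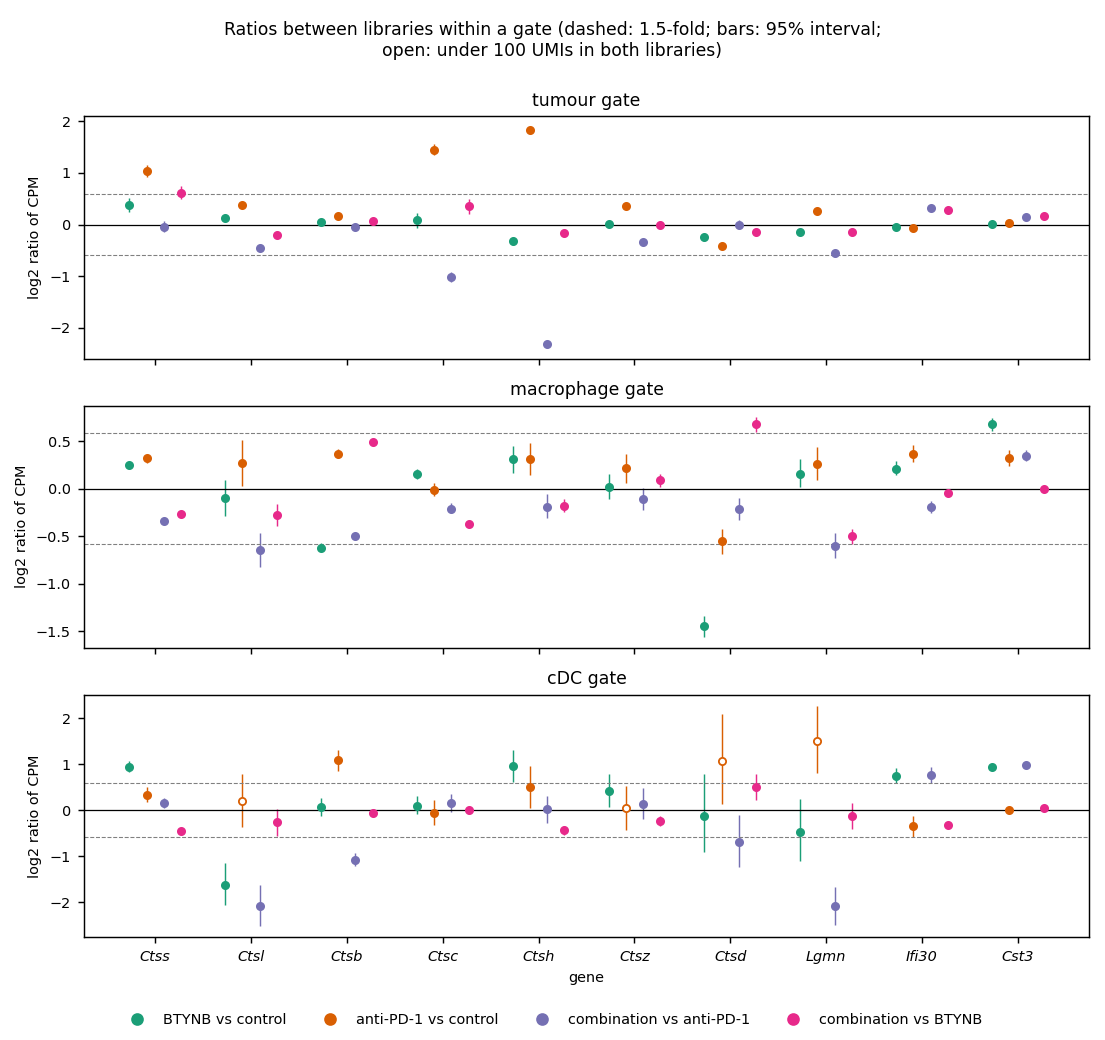
Log2 ratio of CPM between libraries for each gene (x axis) in the tumour, macrophage and cDC gates, coloured by comparison, with 95% intervals of counting error; the axes of the 3 panels differ. Tumour Ctsh and Ctsc in anti-PD-1, macrophage Ctsd in BTYNB and cDC Ctsl, Cst3 and Ctss are among the points outside the dashed 1.5-fold lines.

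In cDC, Ctss, Ctsh, Ifi30 and Cst3 were higher and Ctsl was lower in BTYNB than in control. Ctss was at 2515 against 1304 CPM (log2 ratio 0.95, 0.83 to 1.07), Ctsh at 319 against 164 (0.96, 0.61 to 1.32), Ifi30 at 1333 against 794 (0.75, 0.59 to 0.91) and Cst3 at 14866 against 7706 (0.95). Ctsl was lower, at 36.8 against 113 CPM (-1.62, -2.06 to -1.14). So 4 genes were at least 1.5-fold higher and 1 lower, against 21.5% and 18.9% of all genes. The other 5 lay within the limit, from -0.46 for Lgmn to 0.42 for Ctsz. Tumour genes at 40.5% of their tumour level in the control gate against 7% in BTYNB move with these values. The 41 control and 833 BTYNB cells that passed only the cDC gate gave a narrower gap: Ctss at 1691 and 2436 CPM, Ifi30 at 1047 and 1384, Cst3 at 12345 and 16161, and Ctsl at 73.1 and 29.4. These 41 cells are under the limit for a comparison.

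The remaining cDC comparisons carry the same mixture. In anti-PD-1 against control, 1 of 6 genes tested was higher (Ctsb, 1109 against 521 CPM) and none lower, with 7.2% and 5.63% among all genes. In combination against anti-PD-1, Ifi30 (0.77) and Cst3 (0.99) were higher and Ctsb (-1.07), Ctsd (-0.69), Ctsl (-2.07) and Lgmn (-2.08) lower, with 26.1% and 15.5% of all genes. In the 26 anti-PD-1 and 592 combination cells of the cDC gate alone, Ctsb was at 432 and 418 CPM, Lgmn at 82.7 and 19.5, Ctsl at 36.7 and 26 and Cst3 at 14492 and 16681. Between combination and BTYNB, whose cDC gates held few tumour transcripts, no gene was past 1.5-fold, with 2.98% of all genes higher and 2.22% lower. The 10 genes had a median log2 ratio of -0.18 there and 0.01 over all genes.

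Monocytes and B cells could be compared only between combination and BTYNB. In monocytes, Cst3 was higher (0.95, 0.90 to 0.99) and 8 genes were at least 1.5-fold lower, from Lgmn (-2.29, -2.81 to -1.81) and Ctss (-1.69, -1.78 to -1.61) to Ctsd (-0.68, -1.12 to -0.26), with Ifi30 inside the limit (-0.53), against 10.2% higher and 20.8% lower among all genes. The overlap of the 82 combination cells with other gates and the neutrophil markers of BTYNB, given above, move with these values. In the 23 combination cells that passed no other gate Ctss was at 3652 CPM and Cst3 at 2550, against 6142 and 2161 in the 596 such cells of BTYNB. In B cells, Ctsb (1.04, 0.97 to 1.12), Ctsd (0.92), Ctsc (0.92) and Cst3 (0.84) were at least 1.5-fold higher and none lower, with 10.8% and 21.3% of all genes. The 10 macrophage markers summed to 706 against 340 CPM and the 8 monocyte markers to 2040 against 811, all detected in both, with Lyz2 at 983 against 163. The 68 combination B cells and 2909 BTYNB B cells of no other gate had Ctsb at 234 and 116 CPM, Ctsd at 32.5 and 15 and Ctsc at 464 and 149. In these cells the macrophage markers were at 267 and 271 CPM and the monocyte markers at 1894 and 608, and their part in the B cell values was not tested.

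Other genes of the lysosome were taken from lists of related function. In anti-PD-1 against control tumour cells, 1 of 28 other hydrolases and cofactors was at least 1.5-fold higher, the sterol carrier Npc2 (760 against 351 CPM), with a list median of -0.02 and an all-gene median of -0.08. Of 8 partners of class II presentation tested, 4 were higher and none lower with a median of 0.54, where all genes had shares of 7.31% and 4.92%, led by the peptide-loading chain H2-DMb2 (38.3 against 6.17 CPM), H2-Aa (1424 against 794) and H2-Eb1 (972 against 546). Of 16 V-ATPase subunits, which acidify the lysosome, 1 was higher, Atp6v1b2 (229 against 146 CPM), with a median of -0.06. The 4 other cathepsins tested included 1 that was lower, the aspartic protease Ctse (2.14 against 4.35 CPM).

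In BTYNB against control macrophages, 1 of 25 other hydrolases was lower and none higher, the peptidase Tpp1 (160 against 270 CPM), with a list median of -0.15 and an all-gene median of -0.01. Of 10 lysosomal membrane proteins, Cd63 was lower (96.3 against 232 CPM), and of 15 V-ATPase subunits Atp6v1a was lower (159 against 267). Of 9 class II partners, 4 were higher, none was lower and 5 lay within the limit, with 10.4% of all genes higher and 10.6% lower, led by H2-Eb1 (5348 against 3132 CPM), H2-Aa (6848 against 4080) and H2-Ab1 (8016 against 5091). Of the MiT/TFE factors, which control lysosomal genes, none of 4 was past the limit.

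In BTYNB against control cDC, 9 of 10 class II partners were higher and none lower, with a median of 0.86, led by the class II transactivator Ciita (302 against 134 CPM), H2-Aa (8682 against 4401) and H2-Eb1 (7278 against 3690). Of 25 other hydrolases, 11 were higher, led by the mannosidase Man2b1 (342 against 143 CPM), and 3 were lower, with a median of 0.52 and an all-gene median of 0.01. Of all genes 21.5% were higher and 18.9% lower in this comparison. The cytosolic cathepsin inhibitor Cstb was lower (228 against 498 CPM), as was the membrane protein Cd63 (41.6 against 287). The tumour transcripts of the control gate move with these values as well.

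Over the 16 pairs of gate and library with at least 50 cells, the levels of Ctss, Ifi30 and Ctsc on the log2 scale moved together, with Pearson's r of 0.98 for Ctss with Ctsc and with Ifi30, and 0.97 for Ctsc with Ifi30. Ctsb and Ctsd had r of 0.97, and Ctsl and Cst3 of -0.71. The genes most like Ctss were Cyba, Fcgr2b and Ly86 (r above 0.99), those most like Ifi30 Cd300a, Myo1f and Cfp (r of at least 0.99), those most like Ctsl Anxa3, Maf and Abcc3 (0.97 to 0.94) and those most like Ctsh Gk, Galnt7 and Dpep2 (0.96 to 0.95). These pairs share 4 libraries and 5 gates, so the values describe the gates and are not independent.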

How the data were processed

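Single-cell RNA sequencing of ascites cells (BD Rhapsody) was available as 1 library per treatment. The deposited values are UMI counts per gene and cell, which the authors made with the BD Rhapsody Sequence Analysis Pipeline, and the submitters' processing notes name GRCm39. No column was left without a sample (0 unmapped columns). The libraries held 7858 to 19247 cells and 78603888 to 114600397 UMIs. Library pairs shared 0 to 4 barcodes.

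Cells with at least 200 genes and at most 33% mitochondrial UMIs were kept. The authors removed doublets with scDblFinder. Here scrublet scores ranked the cells and the top 5% of each library were removed, because its automatic call marked only 0.0128% to 3.052%. This left 7442, 17369, 11418 and 6690 cells in control, BTYNB, anti-PD-1 and combination.

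UMIs were summed per gate and library and divided by the gate's total (CPM). Genes with at least 100 UMIs in one of the sums compared were tested for size only: at least 1.5-fold between libraries and at least 2-fold between cell types. Ratios have exact Clopper-Pearson intervals and levels exact Poisson intervals at 95%, for counting error only. No p-value was computed, since each group is 1 library. Shares of cells with a UMI were taken after thinning each cell to 1000 UMIs. Correlations use log2(CPM + 1) of the 16 gate and library pairs with at least 50 cells. The 10 genes were named in full, other lists by the 3 genes with the largest log2 ratio (pseudocount 1), and 3 correlates per gene, of which some are not reported here. The members and lists were chosen with earlier results of these data known. The ratio code was tested on simulated data. Alternatives left doublets in, set a common UMI minimum of 5115, changed the gates, averaged over cells, scaled by the median of ratios, subtracted free RNA or left out Cd24a cells. Python 3.11, numpy 2.4.6, scipy 1.17.1, pandas 2.3.3, scanpy 1.11.5 and matplotlib 3.10.9 were used.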

Additional observations from a re-analysis of the deposited data

Results flagged for a closer look

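Between combination and BTYNB, 4 of the genes had log2 ratios past 1.5-fold in opposite directions in different gates. Of all genes, 10.2% were higher and 20.8% lower in monocytes, and 10.8% and 21.3% in B cells. In macrophages these shares were 5.98% and 4.44%, and in tumour cells 0.804% and 0.422%. The share of all genes with opposite directions is not given here, so the count is not read as particular to these genes. Ctss stood at 0.62 in tumour cells and -1.69 in monocytes, Ctsb at 1.04 in B cells and -0.69 in monocytes, and Ctsc at 0.92 in B cells and -1.22 in monocytes. Ctsd stood at 0.68 in macrophages and 0.92 in B cells and at -0.68 in monocytes. The difference between gates was not tested, since each treatment is 1 library. The monocyte gate of combination held 82 cells, of which 51 passed another gate. The source of the Ctss UMIs of tumour cells was not tested.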

How the results depend on the processing

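Of 535 member ratios past their limit and recomputed under an alternative, 311 stayed within their counting interval, 223 moved outside it and 1 changed sign, Ctsd in cDC of combination against anti-PD-1, at 0.03 after free RNA (the level of genes the cell type should lack) was subtracted. The cause was not tested. The number of the 10 genes past 1.5-fold moved as follows. Shares of all genes under the alternatives are not given here, so these counts show only how the 10 genes depend on the processing. In tumour cells, BTYNB against control gave 1 without the Ptprc limit, 1 as a mean over cells and 1 with free RNA subtracted. Combination against BTYNB gave 0 with stricter gates, 2 without the limit, 0 as a mean over cells and 0 without Cd24a cells, and combination against anti-PD-1 gave 1 without Cd24a cells. In macrophages, anti-PD-1 against control gave 1 without the keratin limit, combination against anti-PD-1 gave 1 without it, 1 with the median of ratios and 0 with free RNA subtracted, and combination against BTYNB gave 0 with the common UMI minimum and 2 as a mean over cells. In cDC, BTYNB against control gave 8 and anti-PD-1 against control 2 with free RNA subtracted, and combination against BTYNB gave 1 with stricter gates. In B cells the mean over cells gave 7. The count of genes 2-fold apart between macrophages and tumour cells, 9 in each library, was between 7 and 9 under the alternatives run. Ctsh in anti-PD-1 came inside the 2-fold limit with the common UMI minimum (0.85), without the gates' limits (0.89), with the median of ratios (0.97) and with free RNA subtracted (0.98).

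Added after seeing the data, monocytes without S100a8 or S100a9 UMIs gave 10 genes past the limit, and cDC with at most 2 keratin UMIs gave 0 for combination against BTYNB. In the unchanged gates 31% of all genes were past it in monocytes and 5.2% in cDC. With fewer than 50 cells left, the common UMI minimum, exclusive gates, stricter gates and the keratin limit were not run for the other 3 cDC comparisons, nor exclusive and stricter gates for monocytes. Subtraction left no value for Ctss in tumour cells, for Ctsl in cDC of combination against anti-PD-1 and for 6 genes in B cells. Leaving out a replicate was not possible with 1 library per treatment. No paired analysis was possible because each treatment is 1 pooled library and no test was made.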
